A study of Mus musculus with 2 samples.

Results

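Keratinocytes are the epithelial cells of the gingiva. They divide in the basal layer, which is marked by keratins 5, 14 and 15, and lose the ability to divide as they move up and switch to keratins of the suprabasal layers. A dividing cell copies its DNA in S phase, with histone genes read at the same time to package the new DNA, and then makes the cyclins, kinases and spindle proteins of G2 phase and mitosis (G2/M). The gingival epithelium, with its junctional part on the tooth surface, is the barrier that dental plaque meets in periodontitis.

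Cycling gingival keratinocytes were taken from 2 single-cell RNA libraries of periodontal tissue, which held cells of the gingiva and the surface of the alveolar bone. The mice of both libraries were wild-type C57BL/6 animals aged 8 weeks. The control mice had no treatment, and the others had ligature-induced periodontitis (LIP), in which a thread tied around a tooth holds plaque at the gum, and were taken 7 days after the ligature was placed. Each library pooled the cells of 5 mice, so there was 1 sample per group, the groups could not be tested, and an effect of the ligature and a difference between the pools cannot be told apart. The intervals given below are 95% intervals that cover counting error only.

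A cell was a member when it passed the limits on quality, when the keratinocyte genes Krt5, Krt14, Krt15, Krt13, Krt4, Krt76, Krtdap and Sbsn made up at least 1% of its transcripts (unique molecular identifiers, UMIs), and when it held at least 2 UMIs of the proliferation genes Mki67 and Top2a together. The members were thus chosen by their measured UMIs of these 10 genes, which are described and support nothing below. This rule found 107 cells among 1819 kept cells, out of 2381 barcodes in all (1169 control with 16472915 UMIs and 1212 LIP with 14236327 UMIs). Of these cells, 79 were among 883 kept cells of the control library and 28 among 936 of the LIP library. The members summed to 2703571 UMIs in the control library and 1008234 in the LIP library, so values of the LIP members are the less precise. Their median depth was 35522 UMIs per cell in the control library and 35529 in the LIP library. The libraries shared 2 barcodes, and neither was a member.

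Few cells lay near the keratin limit. In the control library the lowest member had 1.07% keratin UMIs and the highest cell outside had 0.995%. In the LIP library the lowest member had 1.03% and the highest cell outside 0.920%. On the other limit, 9 members held 2 UMIs of Mki67 and Top2a and 11 held 3, while 31 keratinocytes held 1 UMI and stayed outside (24 control and 7 LIP). Mki67, the antigen of dividing cells, and Top2a, the topoisomerase that untangles replicated chromosomes, summed to 2 to 185 UMIs per control member with a median of 24. In the LIP members they summed to 2 to 137 UMIs with a median of 10, and the libraries overlapped over most of that range. Both genes were found in 74 of the 107 members, Mki67 alone in 32 and Top2a alone in 1.

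Krt14 and Krt5, the keratin pair of the basal layer, were found in 107 of 107 members, which the rule all but fixed. Krt14 stood at 12213 CPM (UMIs per 1000000 UMIs, summed over all members of a library) in control and 11488 CPM in LIP members. Outside the rule genes, Trp63, the transcription factor of stratified epithelium, had UMIs in 78 of 79 control and 28 of 28 LIP members. In endothelial cells of the same libraries, which should lack it and so show the level of free RNA in the droplets, Krt14 stood at 93.3 CPM in control and 57.9 CPM in LIP.

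The promoters of the genes that set these cells apart are shown for the elements that are known to act in cell-cycle transcription. The letters TTTGAA are the core of the cell cycle genes homology region (CHR), which is bound by the MuvB core of the DREAM complex, and CCAAT is the box bound by NF-Y. The stretches below come from the 250 bases before the transcription start given by RefSeq (build GRCm38.p6, the sequence of mm10), each trimmed to the motifs with some flanking bases and to bases outside annotated exons. They are written 5′ to 3′ along the gene, and capitals mark TTTGAA and CCAAT or their complements TTCAAA and ATTGG. The 4 genes were the first with both motifs in such a stretch of at most 200 bases, in the order of the ratio of cycling over non-cycling cells given further below. Mki67 lies on the minus strand at chr7:135716457-135716582, Ccnb2 on the minus strand at chr9:70421556-70421736, Cdk1 on the minus strand at chr10:69352941-69353135 and Cdc20 on the minus strand at chr4:118437353-118437411.
Mki67: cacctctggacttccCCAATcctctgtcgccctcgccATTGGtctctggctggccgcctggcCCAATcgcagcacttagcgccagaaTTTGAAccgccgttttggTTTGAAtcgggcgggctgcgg
Ccnb2: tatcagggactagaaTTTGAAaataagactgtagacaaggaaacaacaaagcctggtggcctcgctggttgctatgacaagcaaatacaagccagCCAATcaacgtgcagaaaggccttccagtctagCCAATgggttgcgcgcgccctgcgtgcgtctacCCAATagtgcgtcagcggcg
Cdk1: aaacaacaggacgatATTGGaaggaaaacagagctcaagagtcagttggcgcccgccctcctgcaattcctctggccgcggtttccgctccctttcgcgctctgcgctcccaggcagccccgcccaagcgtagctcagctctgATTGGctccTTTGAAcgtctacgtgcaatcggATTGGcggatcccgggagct
Cdc20: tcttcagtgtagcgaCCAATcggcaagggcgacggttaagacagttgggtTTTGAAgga

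For the S-phase genes, capitals mark the words TTTGGCGC, TTTCCCGC, TTTGCCGC or TTTCGCGC of E2F factors, or their complements, which can overlap each other. The 3 genes were the S list members of highest ratio with such a word in the stretch. The smaller log2 ratio of the 2 libraries was 1.99 for Mcm5, 1.68 for Pola1 and 0.69 for Mcm6. Mcm6 thus lay within 2-fold in at least 1 library. Mcm5 and Mcm6, subunits of the helicase that opens DNA for copying, lie on the plus strand at chr8:75109341-75109382 and on the minus strand at chr1:128359730-128359830, and Pola1, the catalytic subunit of DNA polymerase alpha, on the minus strand at chrX:93632271-93632308.
Mcm5: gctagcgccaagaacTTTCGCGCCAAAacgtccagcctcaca
Pola1: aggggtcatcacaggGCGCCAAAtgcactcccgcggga
Mcm6: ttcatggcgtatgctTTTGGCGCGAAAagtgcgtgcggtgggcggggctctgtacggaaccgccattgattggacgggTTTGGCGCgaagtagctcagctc

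Motif content differed between the phase lists. Searched on both strands of 250 bases, TTTGAA was present in 17 of 44 matched promoters of the G2/M list (38.6%), against 5 of 30 of the S list (16.7%), 16.3% of 27025 promoters in the table and 10.4% of 5562 promoters of genes compared between cycling and non-cycling cells in both libraries. The E2F words were present in 8 of 30 promoters of the S list (26.7%), 2 of 44 of the G2/M list (4.55%), 1.91% of all promoters and 3.67% of those of compared genes. CCAAT was common to both, at 75% of the G2/M list and 70% of the S list against 34.5% of all promoters and 36.3% of those of compared genes. The first listed start of each gene was used, 44 of 50 G2/M genes and 30 of 42 S genes were matched, and a match describes the letters and not a bound site.

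The share of dividing cells among gingival keratinocytes rests on the UMIs that chose the members, so it is given as a description. Cycling cells were 79 of 238 keratinocytes in control (33.2%, exact Clopper-Pearson interval 27.2% to 39.6%) and 28 of 102 in LIP (27.5%, 19.1% to 37.2%). A deeper cell reaches 2 UMIs more easily, so each keratinocyte was also thinned to 5000 UMIs, which left out 20 shallower cells in each library. The share was then 27.5% in control (21.7% to 34.0%) and 19.5% in LIP (11.6% to 29.7%). At 20000 UMIs per cell the shares were 33.7% and 33.3%, so that their difference moved with the depth chosen while the intervals overlapped at every depth tried.

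**Figure D1:**
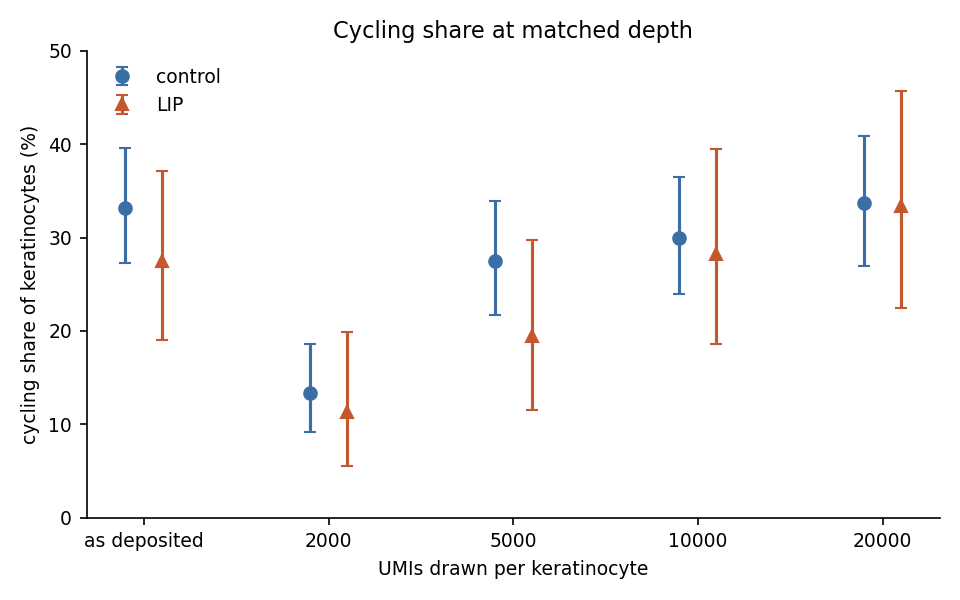
Share of keratinocytes with at least 2 Mki67 and Top2a UMIs (vertical axis, percent) as deposited and after thinning each cell to a fixed number of UMIs (horizontal axis). Points are libraries and bars exact 95% intervals for counting error, which overlap between control and LIP at all 5 settings.

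Keratinocytes as a whole were 27.0% of kept cells in control (24.1% to 30.01%) and 10.9% in LIP (8.97% to 13.1%). Cycling keratinocytes accordingly were 8.95% of kept control cells and 2.99% of kept LIP cells. Among all cells with at least 2 Mki67 and Top2a UMIs, keratinocytes were 79 of 108 in control (73.1%, 63.8% to 81.2%) and 28 of 68 in LIP (41.2%, 29.4% to 53.8%). The shares of cells under the keratin limit that met the same proliferation rule were 4.50% in control and 4.80% in LIP. Thinned to 5000 UMIs per cell they were 3.31% (1.82% to 5.49%) and 4.93% (3.08% to 7.44%), and at 10000 UMIs 6.15% (3.48% to 9.94%) and 10.7% (7.28% to 15.01%).

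The members differed widely in their S and G2/M transcripts. The S and G2/M lists were known phase genes with Mki67 and Top2a left out. Mki67 and Top2a are themselves highest in G2 and M, and across members their UMIs per 10000 followed those of the G2/M list (Spearman rho 0.875 over 79 control and 0.891 over 28 LIP members, with both measures from the same cells). The rule therefore favoured cells with many G2/M transcripts, and the G2/M values of the members are a description. The G2/M list took 5.07 to 291 UMIs per 10000 in control members, with a median of 89.98, and 8.67 to 212 in LIP members, with a median of 63.6. In basal keratinocytes without a Mki67 or Top2a UMI the median was 7.54 in control and 6.67 in LIP. A keratinocyte was called basal when Krt5, Krt14 and Krt15 together exceeded Krt13, Krt4, Krt76, Krtdap and Sbsn in UMIs.

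The S list split the members. It took a median of 9.66 UMIs per 10000 in control and 7.05 in LIP members, against 4.04 and 4.03 in basal non-cycling cells. A limit of 14.1 per 10000, the 95th percentile of 140 basal non-cycling cells with at least 10000 UMIs, was passed by 26 of 79 control members (32.9%, 22.7% to 44.4%) and 7 of 28 LIP members (25%, 10.7% to 44.9%). All 33 of these cells also passed the same percentile of the G2/M list, 12.2 per 10000. A further 39 control and 18 LIP members passed only the G2/M limit, and 14 control and 3 LIP members passed neither. Basal non-cycling cells reached 36.4 S list UMIs per 10000 in control, so that S list values above the limit also occurred outside the Mki67 and Top2a rule.

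Members near the limit of the rule resembled non-cycling cells most. Those with 2 or 3 Mki67 and Top2a UMIs had a median of 9.33 G2/M UMIs per 10000 in the 14 control cells and 15.7 in the 6 LIP cells. Those with 50 or more had medians of 188 in 26 control cells and 170 in 7 LIP cells. Depth moved with this order, since the same groups had median depths of 21181 and 44738.5 UMIs in control and of 25087 and 52494 in LIP, and its part in the order was not tested.

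**Figure D2:**
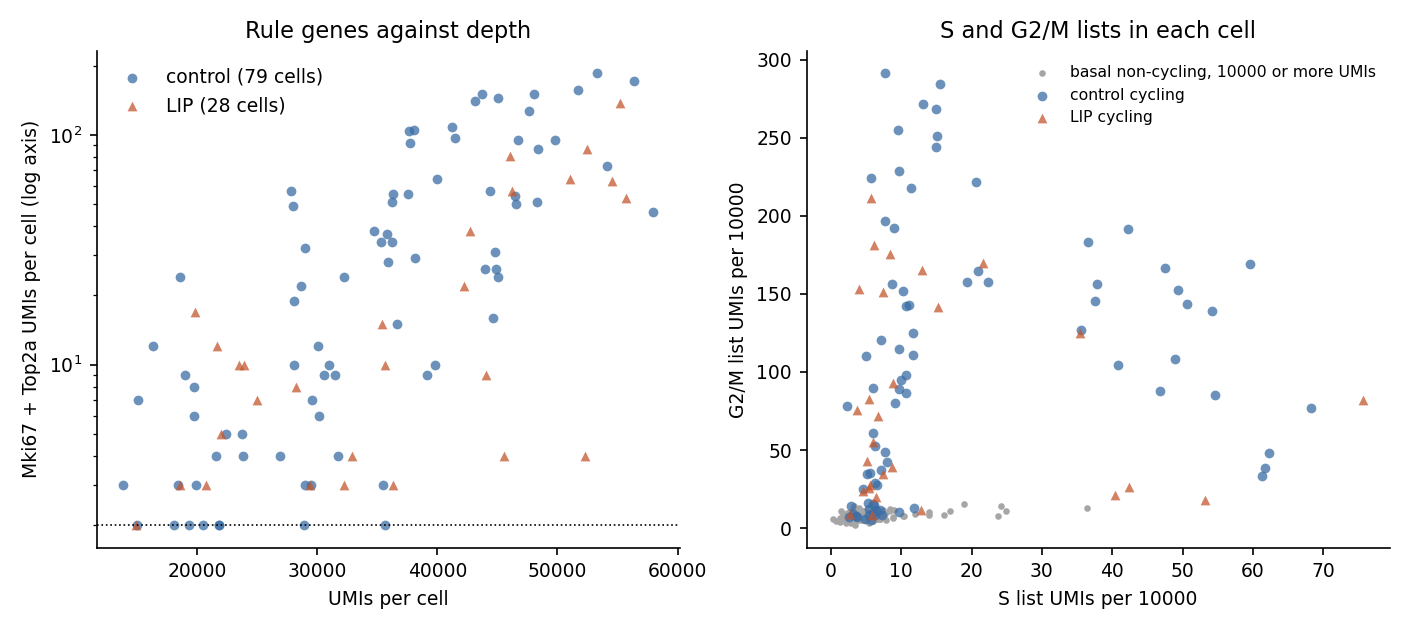
Left, Mki67 and Top2a UMIs (log axis) against UMIs for each of the 107 members, with the limit of 2 dotted. Right, S list against G2/M list UMIs per 10000 in the members and, in grey, in 140 basal non-cycling cells of both libraries, with one arm of members rising along the G2/M axis and another, of up to 75.7 S list UMIs per 10000, holding G2/M transcripts too.

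The contrast of members with basal non-cycling keratinocytes was used by the rule and is a description, not a test. In control 7.31% of 9431 genes compared were at least 2-fold higher in members and 2.12% lower, and in LIP 7.1% of 7056 were higher and 3.56% lower. Genes with at least 30 UMIs over both groups and found in at least 5 cells were compared within each library. Among 6991 genes compared in both libraries, 269 (3.85%) were at least 2-fold higher in cycling cells in both and 35 (0.501%) were at least 2-fold lower in both. The count of higher genes was 133 with a keratin limit of 2%, 144 with a mitochondrial limit of 5%, 98 with genes of at least 100 UMIs and 47 with every cell thinned to 5000 UMIs, and the last 2 settings gave 12 and 8 lower genes. The median gene was 0.14 higher on the log2 scale in each library, and the ratios below are to be read against that shift. All 50 genes of the G2/M list that were compared in control were at least 2-fold higher, as were 46 of 48 in LIP, with list medians of 5.74 and 4.95 on the log2 scale.

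Mitotic genes led the contrast. Ccnb1, the cyclin B1 that drives entry into mitosis with Cdk1, had 701 UMIs in control members and 245 in LIP members (259 and 243 CPM) and 1 UMI in the basal non-cycling cells of each library. Its partner kinase Cdk1 stood at 279 CPM in control and 211 CPM in LIP members, against 3.16 and 0.788 CPM. Cdc20, the activator of the anaphase-promoting complex, stood at 338 and 320 CPM against 3.87 and 1.58 CPM. Both are among the genes whose promoter stretches are printed above.

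The centromere and the division apparatus followed. Cenpa, the histone H3 variant of centromeres, was 6.51 higher on the log2 scale in control and 6.66 in LIP, and Cenpf and Cenpe, proteins of the kinetochore, were 6.50 and 6.13 higher in control. Birc5, a subunit of the chromosomal passenger complex, was 7.04 higher in control and 7.65 in LIP, and its partner Cdca8 6.37 and 7.97. Prc1, which bundles the microtubules of the midzone, was 7.16 and 7.13 higher. Knl1 and Bub1b, which serve the spindle checkpoint, and Cdkn3, a phosphatase that acts on cyclin-dependent kinases, completed the genes highest in both libraries with Ccnb2, Mki67 and Top2a.

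S-phase genes were higher by less. On the S list 28 of 39 genes were at least 2-fold higher in control and 22 of 30 in LIP, against 7.31% and 7.1% of all genes, with medians of 1.80 in both. Pcna, the sliding clamp of the replication fork, stood at 113 CPM in control members against 48.9 CPM in basal cells, and at 85.3 against 29.9 CPM in LIP. Mcm5, whose promoter is printed above, stood at 43.3 against 10.9 CPM in control and 54.5 against 3.15 CPM in LIP. Ccne2, the cyclin E2 of S-phase entry, was found in 16 of 79 control and 4 of 28 LIP members. Of the 269 genes higher in both libraries, 134 were on the gene lists used here, which hold the cell-cycle lists, Mki67 and Top2a, and others. The highest outside the lists were Cdkn3, Pclaf, a partner of Pcna, and Sapcd2.

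Most basal layer genes stood within 2-fold of their level in non-cycling cells, as did most genes compared. Some genes of activated and differentiated keratinocytes were lower in cycling cells. None of 16 basal layer genes was 2-fold higher or lower in control, against 7.31% higher and 2.12% lower of all genes compared. In LIP 2 of 16 were at least 2-fold higher, against 7.1% of all genes, and none lower, against 3.56%. For a list of 16 genes these counts lie near the shares of all genes and do not set the list apart. Krt5, Krt14 and Krt15 of this list were also used to choose the keratinocytes and the basal non-cycling cells among them. Among the higher genes in LIP the basal keratin Krt15 stood at 1137 CPM in members and 383 CPM in basal non-cycling cells. Of its 1146 UMIs in LIP members, 5 cells held 59.5%. Trp63 stood at 367 CPM in control members and 358 CPM in basal non-cycling cells, and Itgb4, an integrin of hemidesmosomes, at 270 and 220 CPM. Krt14 was lower in members by less than 2-fold, at 12213 against 17615 CPM in control and 11488 against 18483 CPM in LIP.

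Krt6b and Krt16, keratins of wound-activated cells, were among the lowest. On the list of wound-activated genes 3 of 10 were at least 2-fold lower in control members and 5 of 11 in LIP members, against 2.12% and 3.56% of all genes, and none was higher in either library. Krt6a stood at 1376 against 3355 CPM in control and, within 2-fold, at 1466 against 2597 CPM in LIP. Krt17 lay within 2-fold in both, at 795 against 1292 CPM in control and 1021 against 1719 CPM in LIP. Of its UMIs in members, 5 cells held 64.9% in control and 89.8% in LIP. Krt6b stood at 5.18 CPM in control members against 324 CPM in basal non-cycling cells, and at 43.6 against 1161 CPM in LIP. Krt16 stood at 26.3 against 432 CPM in control and 97.2 against 841 CPM in LIP, and was found in 20 of 79 and 8 of 28 members. Of the other genes lowest in both libraries, Cdo1, which oxidizes cysteine, stood at 0.740 against 59.4 CPM in control, and Spink5, an inhibitor of the proteases of the upper layers, at 4.44 against 116 CPM. Clic3, Pdzk1ip1, Nat8l, the protease gene Tmprss11b, BC037156 and the transglutaminase gene Tgm7 made up the rest. With no upper limits on genes and UMIs, the lower values of Krt6b and Spink5 came within 2-fold in at least 1 library (log2 ratio nearer to 0 of the 2 libraries -0.14 and -0.69).

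**Figure D3:**
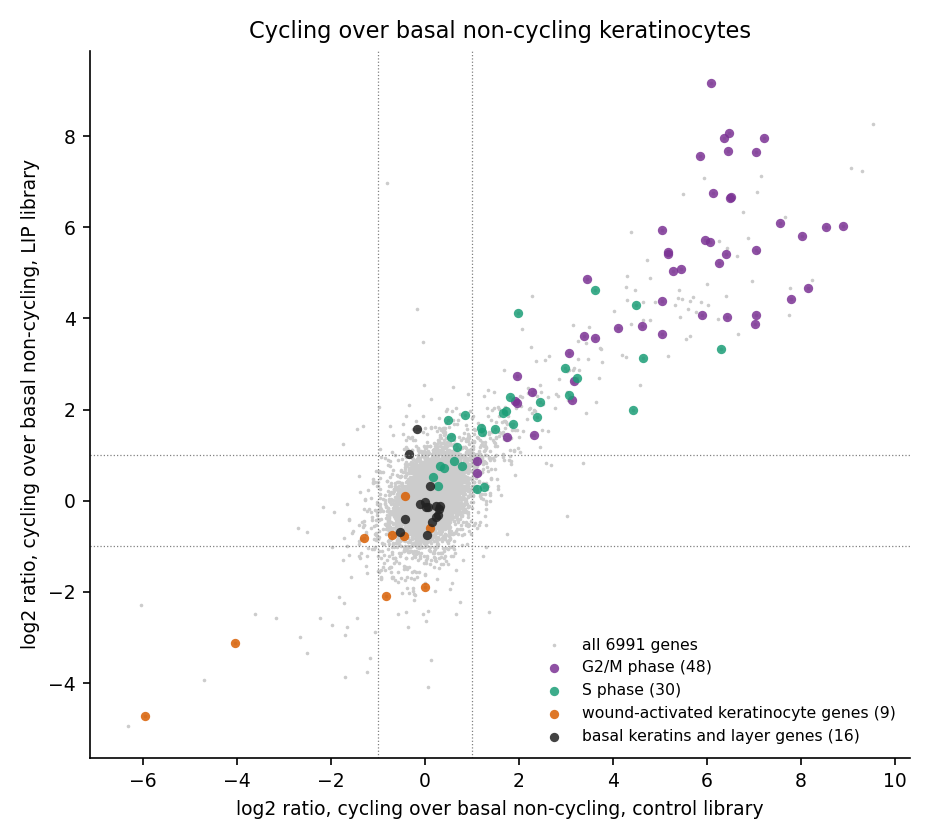
Log2 ratio of cycling over basal non-cycling keratinocytes in the control library (horizontal) and in the LIP library (vertical) for 6991 genes, with 2-fold limits dotted. G2/M genes lie at the upper right, S genes lie lower on the same course, basal layer genes lie near 0, and 2 wound-activated keratins, Krt6b and Krt16, lie at the lower left.

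Basal keratins dominated in almost every member, while the suprabasal keratins Krt13 and Krt4 were more concentrated in a few than Krt76. Krt5, Krt14 and Krt15 exceeded the 5 suprabasal rule genes in 106 of 107 members and made up at least 90% of the keratin UMIs in 58 of 79 control and 25 of 28 LIP members. The exception was a control cell at 11.9%. Krt13, the keratin of suprabasal mucosa, had 2552 UMIs in control members, of which 5 cells held 48.0%, and 636 in LIP members, of which 5 cells held 94.2%. Krt4, its partner, was found in 23 control and 10 LIP members.

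Krt76, a keratin of the gingival and palatal suprabasal layer, was spread more widely. It was found in 68 of 79 control and 19 of 28 LIP members, with a median of 13 UMIs per cell in control and 9 in LIP. It stood at 688 CPM in control and 614 CPM in LIP members, and at 2109 and 1409 CPM in the basal non-cycling cells. In control 10 of 16 suprabasal genes were at least 2-fold lower in members than in basal non-cycling cells, against 2.12% of all genes, and none higher. In LIP 3 of 12 were lower, against 3.56% of all genes, and 3 higher, against 7.1%, namely Krt13, Krt4 and Krtdap. The list holds Krt13, Krt4, Krt76, Krtdap and Sbsn, whose UMIs helped to choose the keratinocytes, so these counts are a description. The basal non-cycling cells were also chosen to hold fewer UMIs of these genes than of Krt5, Krt14 and Krt15. The members did not have to meet that limit. In LIP, Krt13 stood at 631 against 300.2 CPM, a value that rests on its 5 highest cells. Krt4 had 99 UMIs in LIP members, 92.9% of them in 5 cells, against 1 UMI in basal non-cycling cells. Of the 136 Krtdap UMIs in LIP members, 5 cells held 86.8%.

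Between the libraries, antimicrobial genes with enough UMIs to compare were higher and histone genes lower in LIP members, and 1 cell carried the highest values. Of 8571 genes compared, 162 (1.89%) were at least 2-fold higher in LIP members and 285 (3.33%) at least 2-fold lower, and the median gene was -0.04 on the log2 scale. In basal non-cycling keratinocytes 294 of 8569 (3.43%) were higher and 267 (3.12%) lower, with the same median. Taking each gene without its highest member in each library gave 76 genes higher and 522 lower in LIP members, a setting that takes a larger part of 28 cells than of 79. These counts compare 2 libraries and were not tested.

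By their UMIs, the histone genes of S phase were lower in the LIP members. How fully the 3′ capture chemistry caught their transcripts was not tested. These genes supply histones H1, H2A, H2B, H3 and H4 during replication. Of 13 on the list, 7 were at least 2-fold lower in LIP members and none higher, with a list median of -1.05, against 3.33% of all genes compared. Summed, the list stood at 2241 CPM in control members (2185 to 2299) and 1041 CPM in LIP members (979 to 1106), a log2 ratio of -1.11 (-1.20 to -1.01). In basal non-cycling cells it stood at 272 and 267 CPM.

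Hist1h2ap, a histone H2A gene, had 3440 UMIs in control members and 334 in LIP members (1272 and 331 CPM, log2 ratio -1.94). It was found at 50 UMIs or more in 16 of 79 control members (20.3%, 12.04% to 30.8%) and 2 of 28 LIP members (7.14%, 0.877% to 23.5%), so that the intervals of these shares overlapped. The highest member held 304 UMIs in control and 115 in LIP, and the median was 2 and 1.5 UMIs. Hist1h2ae, another H2A gene, stood at 226 and 57.5 CPM, and Hist1h1b, a linker histone gene, at 154 and 60.5 CPM. Hist1h1a had 54 UMIs in control members and 1 in LIP members. The members of this family are near-identical in sequence, so their separate counts are uncertain.

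Not every histone gene followed. Hist1h1d stood at 35.1 CPM in control and 64.5 CPM in LIP members, Hist1h2bc at 172 and 231 CPM, and Hist1h1c at 137 and 148 CPM. In basal non-cycling cells of control Hist1h2bc stood at 153 CPM and Hist1h1c at 50.9 CPM. Slbp, the protein that binds the stem-loop at the end of histone transcripts, stood at 71.8 CPM in control and 33.7 CPM in LIP members.

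The histone difference lay in the members with high S list values. In the members past the S list limit the histone list stood at 4781 CPM in 26 control cells and 1489 CPM in 7 LIP cells. In the other members it stood at 660 CPM in control and 851 CPM in LIP. Cycling cells under the keratin limit had 3254 CPM in control and 2127 CPM in LIP. With the keratin limit at 2%, which kept 41 control and 14 LIP members, the log2 ratio of the list was -0.55, and without the members with 10 or more leukocyte UMIs, 1 in each library, it was -1.34. The part in this result of how many S-phase cells each library held was not tested.

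**Figure D4:**
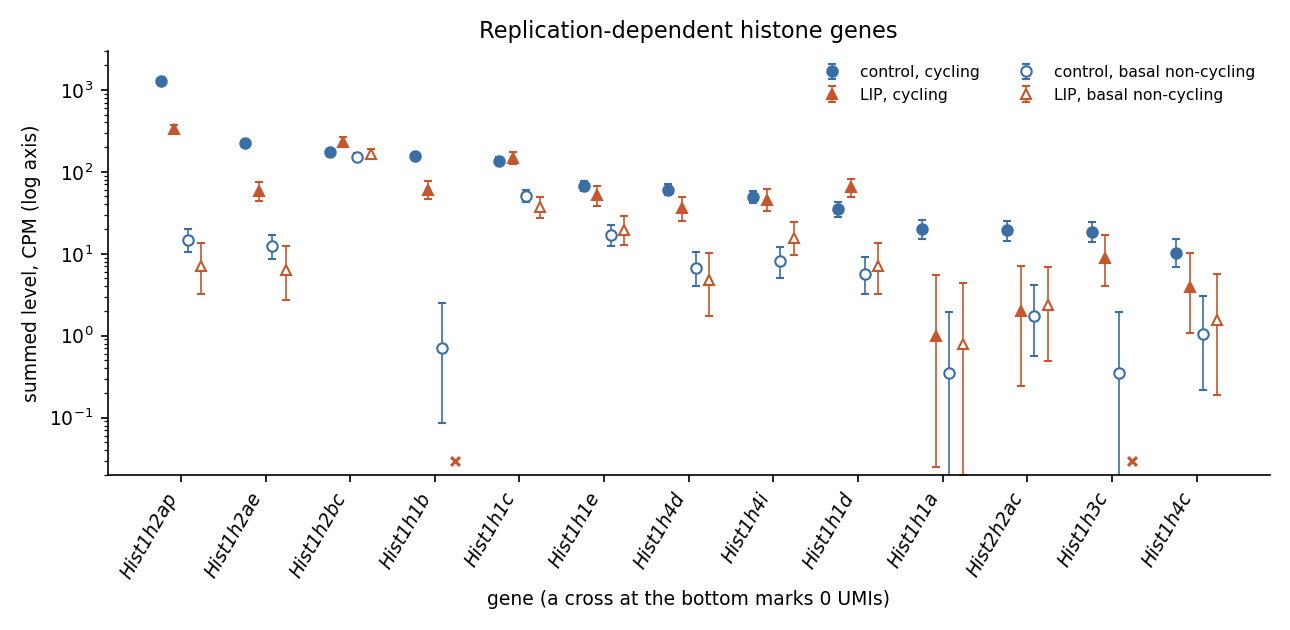
Level (CPM, log axis) of each of the 13 replication-dependent histone genes (horizontal axis) in cycling keratinocytes (filled) and basal non-cycling keratinocytes (open) of each library, with exact Poisson intervals for counting error and a cross where no UMI was found. Hist1h2ap, Hist1h2ae and Hist1h1b are lower in LIP than in control members, while Hist1h1d and Hist1h2bc are not.

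The other cycle lists had smaller ratios, and few of their genes passed the 2-fold limit. The G2/M list had a summed log2 ratio of -0.35 (-0.38 to -0.32) and a median of -0.40, with 1 of 50 genes at least 2-fold lower, a share below the 3.33% of all genes. The S list had a ratio of -0.34 (-0.42 to -0.26), with 4 of 40 lower, against the same 3.33%, and 1 higher, against 1.89%. The latter was Mcm2, at 14.8 CPM in control and 29.8 CPM in LIP. Mki67 stood at 564 and 372 CPM and Top2a at 662 and 356 CPM in control and LIP members. Ccnb1, at 259 and 243 CPM, and Cenpa, at 385 and 399 CPM, had intervals of the log2 ratio that included 0. Rrm2, a subunit of ribonucleotide reductase, stood at 75.5 and 37.7 CPM.

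Genes of growth stood slightly higher in LIP members. Of 24 MYC targets and ribosome biogenesis genes, none was 2-fold higher, and 24 of 24 lay above 0 with a median of 0.33, against a median of -0.04 for all genes. In basal non-cycling cells 5 of 24 lay above 0, with a median of -0.10. Srm, which makes spermidine, stood at 53.6 CPM in control and 88.3 CPM in LIP members, the nucleolar proteins Nop56 and Nop58 at 90.6 and 130 CPM and at 155 and 219 CPM, and Odc1, which starts polyamine synthesis, at 93.2 and 139 CPM.

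Some genes of glycolysis and hypoxia were also higher. Of 19 compared, 3 were at least 2-fold higher, against 1.89% of all genes, and none lower, and 18 lay above 0, with a median of 0.46 in members and 0.29 in basal non-cycling cells. Hif1a, the oxygen-regulated transcription factor, stood at 205 CPM in control and 443 CPM in LIP members, and Slc2a1, a glucose transporter, at 85.8 and 179 CPM. Vegfa had 15 and 24 UMIs, and 75% of the latter lay in 1 cell. On the interferon response list 2 of 12 genes were at least 2-fold lower in LIP members, Bst2 and Cd74, and none higher, against 3.33% lower and 1.89% higher of all genes, with a median of 0.39. Bst2 had 56 UMIs in control members, 76.8% of them in 1 cell, and 4 in LIP members. Cd74 stood at 16.6 CPM in control and 5.95 CPM in LIP members, at 20.4 and 14.2 CPM in the basal non-cycling cells, and at 5372 and 2442 CPM in the cells under the keratin limit. The part of free RNA in its difference was not tested. Within 2-fold, Ifitm3, an interferon-induced membrane protein, stood at 480 and 891 CPM, and H2-K1, an MHC class I gene, at 138 and 246 CPM.

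Of 30 antimicrobial and IL-17 response genes in the data, 12 had enough UMIs to be compared. Of these, 8 were at least 2-fold higher in LIP members, against 1.89% of all genes compared, and 12 of 12 lay above 0. A gene could reach 30 UMIs through the LIP members alone, as Slpi did with 5 control and 55 LIP UMIs. Such a gene could only lie above 0, so the counts are a description. The median over these 12 genes was 1.45 on the log2 scale. The neutrophil marker list, which also holds S100a8 and S100a9, had a summed log2 ratio of 3.47 in members. At least 2 UMIs of the leukocyte marker list were found in 7 of 28 LIP members (25%) and 1 of 79 control members (1.27%). The part of leukocyte RNA in the values of the 12 genes was not tested. In basal non-cycling cells 12 of 15 genes compared were at least 2-fold higher, against 3.43% of all genes compared there. Wfdc2, a secreted protease inhibitor, stood at 127 CPM in control and 258 CPM in LIP members, and Il1f9, an epithelial cytokine, at 11.8 and 40.7 CPM. Zc3h12a, a nuclease that degrades inflammatory transcripts, stood at 10.4 and 25.8 CPM and Nfkbiz, a cofactor of the IL-17 response, at 38.1 and 61.5 CPM. Nfkbiz lay within 2-fold.

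S100a8 and S100a9, which encode the subunits of calprotectin, are made by neutrophils as well as by epithelium. S100a8 had 65 UMIs in control members and 597 in LIP members (24.04 and 592 CPM), and S100a9 144 and 511 (53.3 and 507 CPM). Every LIP member held a UMI of S100a9, but so did 72.2% of 79 LIP endothelial cells, at a median depth of 8886 UMIs. In these endothelial cells S100a8 stood at 103 CPM and S100a9 at 206 CPM. Without the highest member of each library the LIP members stood at 365 CPM for S100a8 and 226 CPM for S100a9.

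Cxcl2, a chemokine that attracts neutrophils, had 8 UMIs in 5 control members and 112 UMIs in 20 LIP members. It stood at 111 CPM in LIP members and 28.3 CPM in LIP endothelial cells, and at 63.3 CPM in the LIP members without the highest of them. In the cells under the keratin limit Cxcl2 stood at 388 CPM in control and 4629 CPM in LIP. Slpi, an inhibitor of leukocyte proteases, had 5 UMIs in 5 control members and 55 UMIs in 11 LIP members, of which 1 cell held 50.9%. It stood at 54.6 CPM in LIP members and at 28.0 CPM without the highest of them. In the cells under the keratin limit it stood at 514 CPM in control and 1509 CPM in LIP. The part of free RNA in the values of Cxcl2 and Slpi was not tested. Cxcl2 and Slpi were still among the genes with the highest LIP over control ratio when each gene was taken without its highest member in each library. That setting kept the LIP member with the most leukocyte UMIs, described below. This cell held 28 of the 112 Cxcl2 UMIs and 18 of the 55 Slpi UMIs, and its part in the ratios was not tested.

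The most extreme values came from 1 LIP cell. It held 4479 of 4515 BC037156 UMIs in LIP members (99.2%), 909 of 914 of the chemokine gene Ppbp, 337 of 346 of U90926 and 89 of 94 of Cxcl3. It also held 136 of 145 UMIs of Odam, a secreted protein of junctional epithelium and enamel organ, and 225 of 228 of Cxcl5. The same cell had 302 Krt14, 218 Krt5, 358 Krt17 and 212 Krt6a UMIs, 9 Mki67 UMIs and no Top2a UMI, among 44023 UMIs, and 3 UMIs of the leukocyte list.

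High BC037156 values were also seen in non-cycling basal cells of the LIP library. At least 10 BC037156 UMIs were found in 20 of 59 LIP basal non-cycling cells (33.9%, 22.1% to 47.4%), with up to 13980 UMIs in a cell, and in 3 of 112 of control. Among cycling cells it was 1 of 28 in LIP (3.57%, 0.0904% to 18.3%) and 0 of 79 in control, which allows a share of up to 3.80% by the limit of 3 cells and of up to 4.56% by the exact interval. The remaining 27 LIP members stood at 37.3 CPM for BC037156, below the 65.0 CPM of LIP endothelial cells. Without that cell, 117 genes were at least 2-fold higher in LIP members.

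A second LIP cell held many of the leukocyte transcripts. It had 35 of the 60 leukocyte list UMIs in LIP members, 296 of 511 S100a9, 249 of 597 S100a8, 20 of 36 Il1b and 25 of 47 Srgn UMIs. Srgn and Cd14, both made by myeloid cells, stood at 46.6 and 29.8 CPM in LIP members and higher in LIP endothelial cells, at 328 and 57.9 CPM. It also held 755 Krt14 and 343 Krt5 UMIs and, with 137 Mki67 and Top2a UMIs, the most of any LIP member. In control, 1 member held 80 of 100 leukocyte list UMIs, with 51 Cd52 and 4 Cd3g UMIs beside 175 Krt14 UMIs and 2 Top2a UMIs. Mixed droplets were not called by software, and their part in these cells was not tested.

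**Figure D5:**
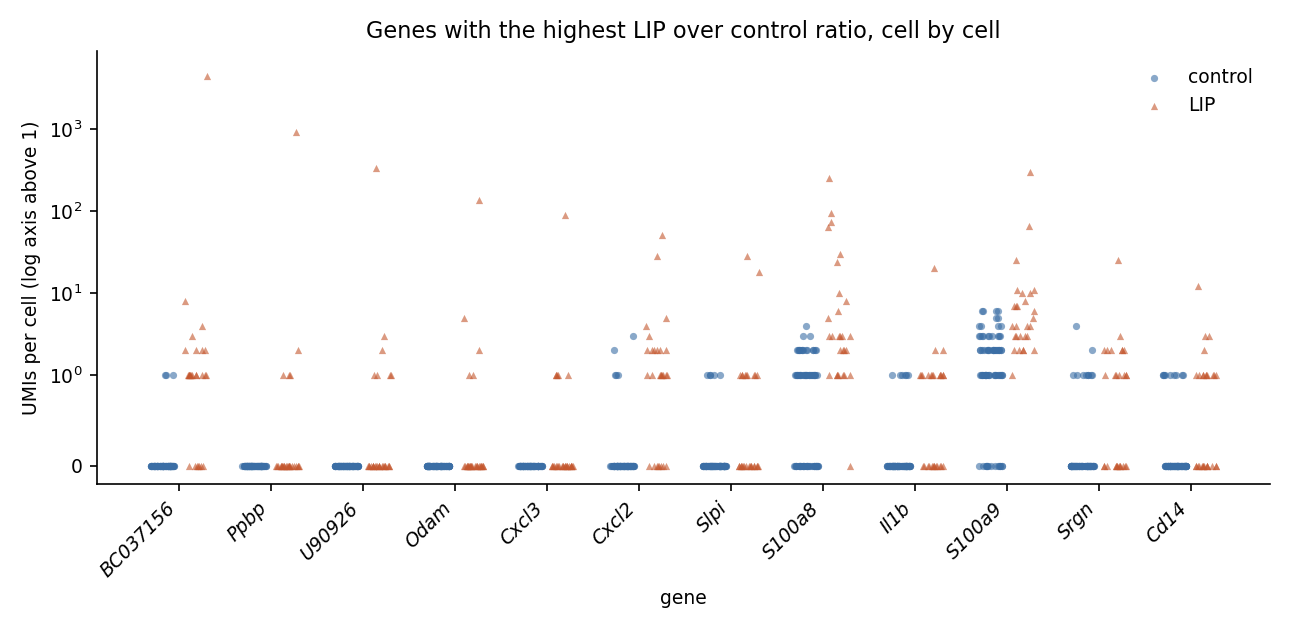
UMIs per cell (log axis above 1) of the 12 genes with the highest LIP over control ratio, with each point a member. BC037156, Ppbp, U90926, Odam and Cxcl3 are carried by 1 LIP cell, whereas S100a8, S100a9 and Cxcl2 have UMIs in many LIP cells and a few high ones.

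The genes lowest in LIP members were mostly rare. Igkc, the immunoglobulin kappa constant region, had 155 UMIs in 66 control members and 1 UMI in LIP members. It also stood at 120 CPM in control endothelial cells and at 0 in LIP ones, and at 11444 CPM in the control cells under the keratin limit, against 57.3 CPM in the control members. Hist1h1a, Hist2h2ac and Hist1h3e were histone genes, and Cenpj, a centriole protein, had 36 and 2 UMIs. Per3, a clock gene, had 48 UMIs in 30 control members and 3 in LIP members (log2 ratio -2.58, -4.90 to -0.94). Gm28875, Crabp1, Pot1a, Pcdh20, Ncoa7 and Zfp820 had 1 to 3 UMIs in the LIP members, so their ratios are imprecise.

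Among the genes of the upper layers, 3 of 14 were at least 2-fold lower in LIP members, against 3.33% of all genes. Another 2 were at least 2-fold higher, against 1.89%. A gene could have enough UMIs to compare through either library alone, as Krt6b did with 14 control and 44 LIP UMIs. These counts are therefore a description and do not set the list apart. Klf4, a transcription factor of the epidermal barrier, stood at 120 CPM in control and 50.6 CPM in LIP members, Dsg1a, a desmoglein, at 101 and 32.7 CPM, and Ovol1, a repressor that promotes exit from the cycle, at 14.4 and 3.97 CPM. The 2 higher ones were Krt6b, at 5.18 and 43.6 CPM, and Krt16, at 26.3 and 97.2 CPM. The cell that held most of BC037156 held 86.4% of the Krt6b and 45.9% of the Krt16 UMIs of the LIP members.

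Marker lists of other cell types were not empty in the members, and some of their genes were at 0. The neutrophil list summed to 108 CPM in control members and 1198 CPM in LIP members, with S100a9 and S100a8 as its most abundant genes. Of its 12 genes, 4 had no UMI in control members and 2 in LIP members, Ly6g and Mmp8 in both, and the list stood at 56055 CPM in the LIP cells under the keratin limit. The macrophage list summed to 14.4 and 81.3 CPM, led by Lyz2 and Cd14, with 6 and 4 of 12 genes at 0, among them Adgre1 and Mrc1 in both. The T cell list summed to 113 and 96.2 CPM, led by Trbc2 with 192 and 60 UMIs, with 3 and 6 of 10 genes at 0, among them Cd3e and Cd3d in both. The fibroblast and osteogenic list summed to 764 and 639 CPM, led by Dcn with 1960 and 545 UMIs, with 3 and 1 of 11 genes at 0, Pdgfra in both. Of its 4 genes with enough UMIs to compare, 3 were at least 2-fold higher in LIP members, against 1.89% of all genes, namely Col1a1, Col1a2 and Col3a1 with 23 to 29 UMIs each, and none was lower, with a median of 1.12, while Dcn stood at 725 CPM in control and 541 CPM in LIP members. The part of free RNA and of mixed droplets in the remaining values was not tested.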

How the data were processed

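Per the labels, cells were captured by the 10x Genomics 3′ v3 chemistry, and the authors ran Cell Ranger (3.1.0 per the file headers) against mm10. The deposited values were raw UMI counts per gene and barcode. The members and gene lists were chosen with earlier results of these data known. Barcodes with 200 to 7500 genes, at most 60000 UMIs and at most 10% mitochondrial UMIs were kept. Counts were summed per library and group, scaled to CPM and compared as log2 ratios with exact conditional intervals, with a group at 0 set to 3 counts. Genes needed 30 UMIs in 5 cells, and a 2-fold ratio was the call rule. Genes were named as the rule genes, the 12 highest and 12 lowest of LIP over control, the 15 highest and 10 lowest of cycling over basal cells, and list genes by abundance or ratio. Those named without their highest member were chosen after their values were seen. On counts simulated with Poisson error only, 96.1% of intervals for 8578 genes covered the value put in. The simulation used the error model of the intervals and held no differences between cells, so it cannot show how they fare with such differences. Analyses used Python 3.11.15, numpy 2.4.6, scipy 1.17.1, pandas 2.3.3, and GENCODE M21. Doublets were not called.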

Additional observations from a re-analysis of the deposited data

Results flagged for a closer look

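Some results differed in direction between the cycling and the basal non-cycling keratinocytes, with intervals for counting error on opposite sides of 0. The difference itself was not tested. The spindle and midbody list had a LIP over control log2 ratio of -0.49 in cycling cells and 0.46 in basal non-cycling cells, the MYC targets and ribosome biogenesis list 0.24 and -0.09, and the list of CDK inhibitors and exit genes -0.40 and 0.16. Of the marker lists of other cell types, the fibroblast and osteogenic list had -0.26 (-0.39 to -0.13) in cycling cells and 0.85 (0.73 to 0.98) in basal non-cycling cells, and the Schwann list -0.55 (-0.96 to -0.16) and 1.38 (1.03 to 1.73). All of these are ratios of summed levels, and the fibroblast and osteogenic sum is mostly Dcn, while the median of its 4 compared genes in cycling cells, 1.12, has the other sign. The gene median of the list of CDK inhibitors and exit genes in basal non-cycling cells, -0.20, has the other sign. In basal non-cycling cells only 4 of the 21 spindle and midbody genes had enough UMIs to be compared one by one. The tubulin genes Tuba1c and Tubb4b held 191 and 188 of the 658 UMIs of that list in LIP and 147 and 242 of 1072 in control, and 8 of its genes were at 0 in LIP and 2 in control. Outside the kept cells, 10 control and 6 LIP barcodes met the keratin and Mki67 and Top2a limits. Of these, 6 control and 3 LIP barcodes exceeded the limits on genes or UMIs, and 4 control and 3 LIP barcodes exceeded the mitochondrial limit. They held up to 206 Mki67 and Top2a UMIs in control and 61 in LIP.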

How the results depend on the processing

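No paired analysis was possible because each group is 1 pooled library and the labels give no replicate numbers. With each group a single library, no setting tests reproducibility. A keratin limit of 5% left no member. The keratin limit of 2%, the limit of 20000 UMIs in thinning and the settings that leave out single members were added after the data had been seen. A keratin limit of 2% left 41 control and 14 LIP members, a control share of 23.98%, 133 genes higher in cycling cells in both libraries and a histone ratio of -0.55. A mitochondrial limit of 5% left 12 LIP members, 655 genes lower in LIP, a histone ratio of -1.31 and 144 genes higher in cycling cells. With 1 Mki67 or Top2a UMI enough, the control share was 43.3% and the histone ratio -0.98. Thinned to 2000 UMIs the shares were 13.4% and 11.4%, and at 20000 UMIs the LIP share was 33.3%. With genes of at least 10 UMIs, 445 were higher and 634 lower in LIP, and with at least 100 UMIs 31 and 43, with 98 higher and 12 lower in cycling cells. Every cell thinned to 5000 UMIs gave 47 higher and 8 lower. Members with under 2 leukocyte UMIs gave a histone ratio of -1.45, those with under 10 gave -1.34, and without the BC037156 cell as well it was -1.41. Taking each gene without its highest member gave 76 genes higher, 522 lower and a histone ratio of -1.39. That setting takes a larger part of 28 cells than of 79 and keeps the library totals. For the main results, 80 values stayed near that of the main setting and 28 moved away from it. A named gene with too few UMIs to compare under a setting gave no value there. Without the BC037156 cell, for example, Ppbp had 5 UMIs left in LIP members. For single named genes that had a value, 466 values kept their side of the 2-fold limit, none turned its direction and 3 crossed it. Of these Srgn, with a LIP over control ratio of 0.76 on the log2 scale when 1 UMI was enough, was one, and Krt6b and Spink5 were the others.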

Other observations

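Many chromatin genes outside the replication-dependent histones were also higher in cycling than in basal non-cycling keratinocytes. The list of histone variants and chromatin proteins summed to 12753 CPM in control members and 5030 CPM in basal non-cycling cells, and to 10520 and 4704 CPM in LIP, with Hmgb1, a DNA-bending protein, as its most abundant gene in the members of both libraries. Of 16 genes, 10 were at least 2-fold higher in cycling cells in each library, against 7.31% of all genes in control and 7.1% in LIP. This contrast was used by the rule and is a description.

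Of the other marker lists, the Langerhans and dendritic cell list summed to 178 CPM in control and 145 CPM in LIP members, led by Epcam with 366 and 106 UMIs, while Flt3 and Xcr1 had no UMI. The endothelial list summed to 7.40 and 10.9 CPM, the mural list to 85.8 and 61.5 CPM, the Schwann cell list, led by Pmp22, to 97.3 and 66.5 CPM, and the melanocyte list to 1.85 and 2.98 CPM, with Dct and Tyrp1 at 0. The B cell list summed to 177 and 2 UMIs, 155 of the former Igkc. The erythroid list, led by Hbb-bs, summed to 199 and 110 CPM, and the salivary and mucous list, led by Muc5b, to 117 and 101 CPM.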
